A study of Canis lupus familiaris with 10 samples.

Results

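The 37 genes of the canine mitochondrial genome were followed in atrial muscle after circumferential pulmonary vein ablation (CPVA). The genes were taken as the 37 consecutive Ensembl identifiers ENSCAFG00000022708 to ENSCAFG00000022744 among the 31897 genes of the expression table. Symbols are absent from the table, so the identifiers were read in number order as the vertebrate mitochondrial gene order, from tRNA-Phe to tRNA-Pro, and each name was checked against the gene length worked out from the values. All 37 lengths lay in the range set for their gene. The 15 rRNA and protein genes all had different lengths, such as 1545 bases for COX1, 1821 for ND5 and 1140 for CYTB. The 22 tRNA genes had 60 to 75 bases, so neighbouring tRNA genes are told apart by their order between the longer genes and not by length. The length of tRNA-Phe rests on 1 read.

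Beagles of the CPVA group (n = 5) underwent right thoracotomy with radiofrequency ablation along the root of the left pulmonary vein. Beagles of the control group (n = 5) had the thoracotomy alone. Target atrial tissue was taken 6 months later, and oligo(dT)-enriched RNA was sequenced in 10 libraries, so p-values measure the spread between these libraries. In limma, they also draw on the spread of other genes. This made the intervals of COX1 and ATP6 wider than their own values give. The strain beyond the breed and the ages of the animals were not given in the sources used here. Markers of atrial muscle were not analysed here, as the table holds no symbols, and of other cell types 2 macrophage genes were matched through the study's supplement. The supplement also pairs BNC1, a mesothelial gene, which was not used here. In tissue made of several cell types, fewer cells of a type and less RNA per cell cannot be told apart. By staining and western blots, the paper reported more fibrosis in target atrial tissue of the CPVA group. Its part in the mitochondrial values was not tested.

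Mitochondria carry their own small circular genome, which encodes core subunits of the respiratory chain and of ATP synthase, together with the rRNAs and tRNAs needed to translate them. Both strands are transcribed as long precursors, in which tRNAs lie between most of the longer genes and are cut out to release them. The strands are named heavy and light. The set named here as light-strand genes holds ND6 and 8 tRNA genes, and the heavy-strand set holds the other 28 genes. Heart muscle depends on oxidative phosphorylation and is rich in mitochondrial transcripts.

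Mitochondrial genes held between 16.9% and 31.25% of the reads counted on genes in a library. In the control group, this share was 26.97%, 22.1%, 26.2%, 27.2% and 29.5% in Control1 to Control5. In the CPVA group, it was 31.25%, 23.6%, 16.9%, 25.7% and 25.2% in CPVA1 to CPVA5. The highest and the lowest share both belonged to the CPVA group, and the groups overlapped. The mean was 24.5% ± 5.15 in the CPVA group and 26.4% ± 2.70 in the control group (SD, n = 5 each), and without CPVA3 the mean of the CPVA group was 26.4% ± 3.33 (SD, n = 4). The difference of the means, 1.87 percentage points, was within the spread of the libraries. CPVA3 also had the highest FPKM of MARCO, a scavenger receptor gene of macrophages, with 237.2, followed by CPVA2 with 58.1, while the other 8 libraries had at most 0.323. CD5L, another gene of macrophages, had 195.3 FPKM in CPVA3, 51.3 in CPVA2 and at most 0.147 in the other 8 libraries. The part of this in the mitochondrial share of CPVA3 was not tested.

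**Figure D1:**
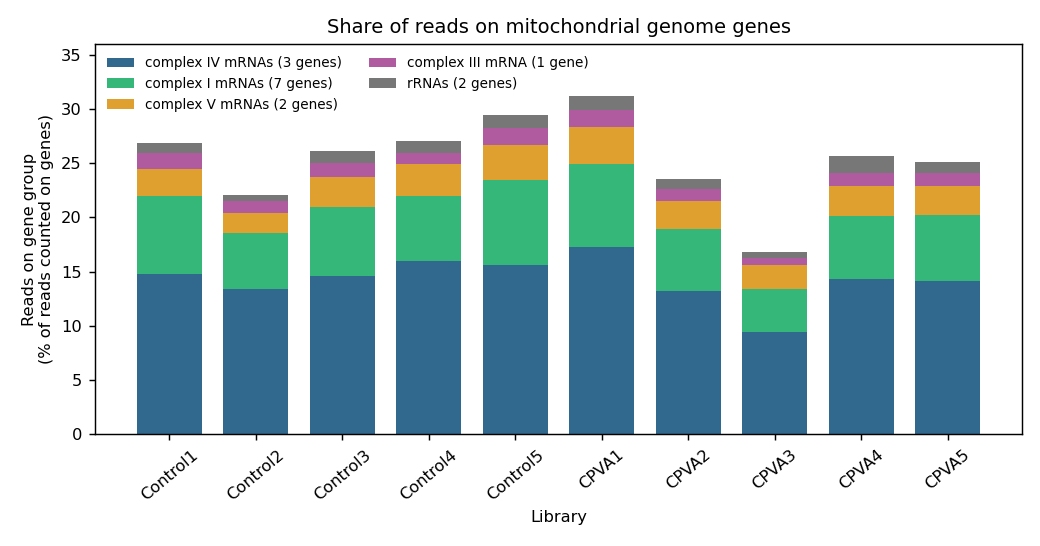
Reads on mitochondrial genes as a percentage of all reads counted on genes (vertical axis) in each of the 10 libraries (horizontal axis), stacked by gene group; the 22 tRNA genes, at most 0.113% of the reads, are not drawn. CPVA1 has the tallest bar, 31.25% with the tRNA genes, and CPVA3 the shortest, 16.9%.

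The 13 protein genes made up nearly all of this share. Complex IV, cytochrome c oxidase, took the largest part, with 14.9% ± 1.02 of the reads in the control group and 13.7% ± 2.83 in the CPVA group for its 3 mitochondrial genes (SD, n = 5 each). The 7 genes of complex I, NADH dehydrogenase, took 6.50% ± 1.03 and 5.85% ± 1.30. The 2 genes of ATP synthase, complex V, took 2.69% ± 0.521 and 2.73% ± 0.463, and CYTB, the mitochondrial subunit of complex III, took 1.249% ± 0.232 and 1.14% ± 0.287. Both rRNAs together took 0.998% ± 0.268 and 1.07% ± 0.366. The 22 tRNA genes took 0.0881% ± 0.0178 in the control group and 0.0601% ± 0.0142 in the CPVA group. Libraries of the CPVA and control groups overlapped for each of these gene groups. Only for the tRNA genes was the difference of the means larger than the SD of either group. Their overlap came from CPVA libraries such as CPVA1, with 0.0788%, which lay above Control2, with 0.0667%. These sums were not tested.

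Levels were compared between genes as FPKM, which corrects for gene length. Between 8 and 9 of the 10 genes with the highest FPKM in each library were mitochondrial. COX1, the catalytic subunit of cytochrome c oxidase, ranked highest of all genes in each of the 10 libraries and ATP6, a membrane subunit of ATP synthase, was second in each. COX2 and COX3, the other mitochondrial subunits of cytochrome c oxidase, changed places between ranks 3 and 5. Of the middle group, ND4L ranged from rank 4 to 8 among the 13 protein genes, ND4 from 5 to 6, ND1 from 5 to 8, CYTB from 7 to 9 and ND2 from 7 to 10, so these neighbours are not separated by their levels. ND5, ND6 and ND3 followed between ranks 9 and 12. ATP8, which encodes a small subunit of ATP synthase, was last in each library, with 3010 ± 644 FPKM in the control group against 69045 ± 3129 FPKM for COX1 (SD, n = 5). ATP8 overlaps ATP6, and ND4L overlaps ND4. How reads in such overlaps were counted is not given in the sources used here, so the levels of these genes are uncertain.

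**Figure D2:**
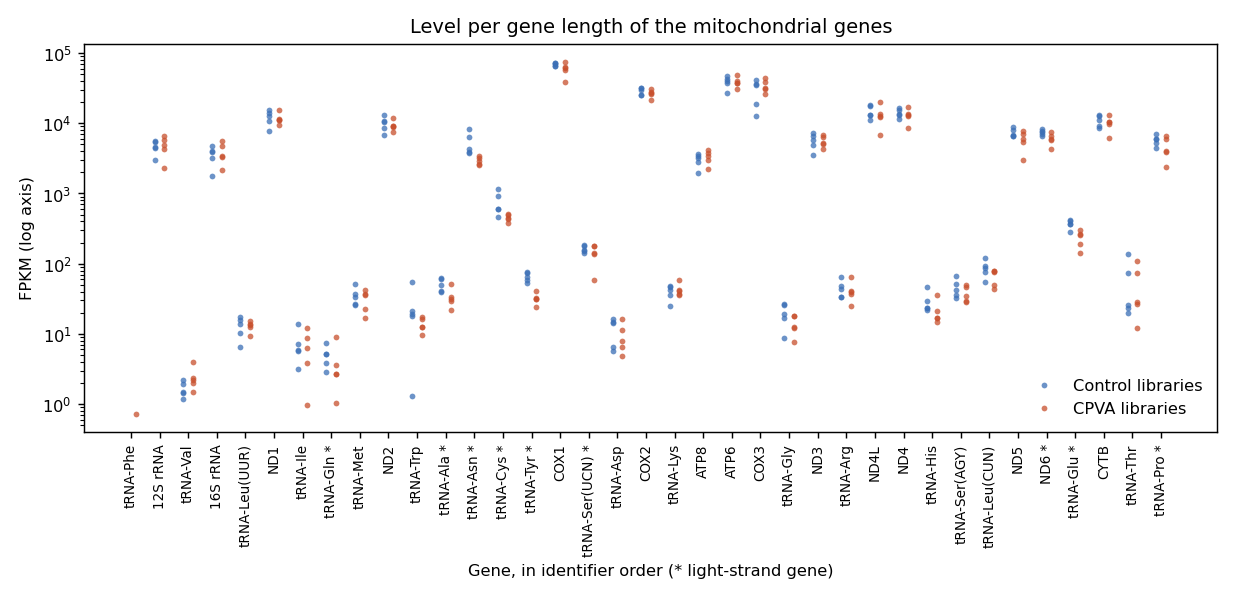
FPKM on a log axis (vertical) of each mitochondrial gene in identifier order (horizontal), with 1 point per library and an asterisk at light-strand genes; libraries at 0 are not drawn, which leaves 1 point for tRNA-Phe. Protein genes lie from 1973 FPKM (ATP8 in Control2) to 75575 FPKM (COX1 in CPVA1), and among the tRNA genes tRNA-Pro and tRNA-Asn reach the level of the rRNAs.

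The comparison between the groups asked which mitochondrial genes differed 6 months after CPVA. It was made with limma on log2(FPKM + 0.1), fitted and adjusted over the 19222 genes whose mean FPKM reached 0.1. Of the 37 mitochondrial genes, 36 passed this filter; tRNA-Phe did not. With a call set at an adjusted p below 0.05 and a log2 fold change of 1 or more in either direction, 0 of the 36 genes were called, and over all genes tested 0% were called, the smallest adjusted p being 0.0708 in limma. The paper states the same thresholds with DESeq2, though its list of top genes includes some with an adjusted p above 0.05. It reported differentially expressed genes in both directions, most of them upregulated. The 0% therefore holds for limma on these FPKM values and does not mean that no gene differed. At an unadjusted p under 0.05, 5 of the 36 mitochondrial genes were lower and 0 were higher in the CPVA group, against 2.38% of all genes tested that were lower and 5.08% that were higher. The 5 genes were tRNA-Ala, tRNA-Asn, tRNA-Cys, tRNA-Tyr and tRNA-Glu, all light-strand tRNA genes, and the first 4 are direct neighbours in the gene order. The log2 fold change was below 0 for 27 of the 36 genes, with a median of -0.20, and for 38.7% of all genes tested, with a median of 0.08. This rests on CPVA3: without it, 20 of the 36 genes were below 0, with a median of -0.0179, against 48.1% of all genes, and without CPVA2 and CPVA3, 16 were below 0, with a median of 0.0286, against 57.7%.

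**Figure D3:**
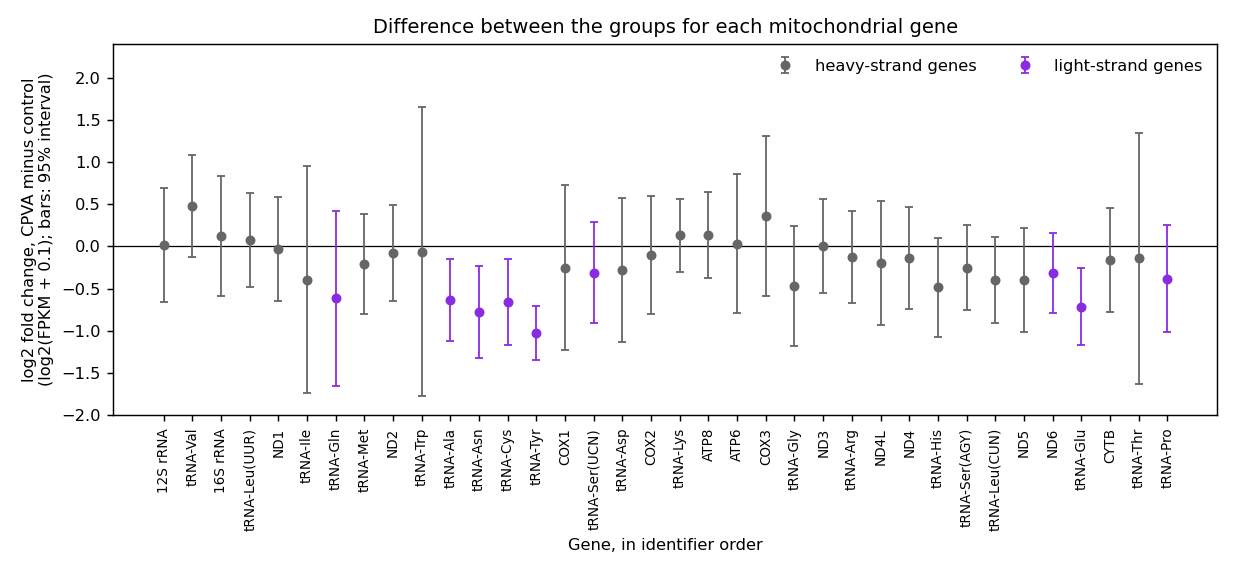
log2 fold change of CPVA minus control on the log2(FPKM + 0.1) scale (vertical axis) for the 36 genes tested, in identifier order (horizontal axis), with 95% intervals from limma. Colour marks the strand set each gene was placed in, not the strand of its reads. The 9 light-strand genes all lie below 0, from -0.31 for tRNA-Ser(UCN) to -1.03 for tRNA-Tyr. The 27 heavy-strand genes lie on both sides of 0, between -0.48 and 0.48. Of all genes tested, 38.7% lie below 0.

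No protein gene differed detectably. The 13 log2 fold changes ranged from -0.40 for ND5 to 0.36 for COX3, 9 of them below 0, with a median of -0.10 that was 0.01 without CPVA3. COX1 had 72935, 69060, 65567, 71267 and 66399 FPKM in Control1 to Control5, and 75575, 57648, 38191, 61089 and 64075 FPKM in CPVA1 to CPVA5. The lowest value was that of CPVA3, and CPVA1 was above each control library. The log2 fold change of COX1 was -0.25 (standard error 0.44, 95% interval -1.23 to 0.72, adjusted p = 0.878 from limma), an interval that covers a change in either direction. Without CPVA3 the log2 fold change was -0.10. The limma standard error also draws on the variance of other genes and is larger than the spread of these COX1 values alone gives. An exact permutation test over the libraries gave p = 0.127.

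ND5, a membrane subunit of complex I at its proton-pumping arm, had 7976, 6878, 6534, 6518 and 8837 FPKM in the control group. It had 7684, 5900, 3003, 5437 and 7032 FPKM in the CPVA group. CPVA2, CPVA3 and CPVA4 were below each control library and the other 2 were within the control range, with a log2 fold change of -0.40 (95% interval -1.01 to 0.21, adjusted p = 0.714 from limma). Without CPVA3 it was -0.18.

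CYTB had 12531, 9117, 11257, 8626 and 13232 FPKM in the control group and 13104, 9674, 6107, 10496 and 10458 FPKM in the CPVA group. CPVA3 alone was below the control range. In limma the log2 fold change was -0.16 (95% interval -0.77 to 0.46, adjusted p = 0.879), and its sign changed without CPVA3, to 0.00843. ND1, a subunit in the membrane arm of complex I close to the ubiquinone site, had 12800, 7856, 13964, 10610 and 15325 FPKM in the control group and 15230, 11182, 9369, 11630 and 11095 FPKM in the CPVA group. All 5 CPVA values lay within the control range, with a log2 fold change of -0.03 (95% interval -0.64 to 0.58, limma), whose sign also changed without CPVA3.

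ATP synthase makes ATP from the proton gradient, and 2 of its subunits are mitochondrial genes. ATP6 had 36878, 26815, 40291, 42194 and 46682 FPKM in the control group and 49292, 37071, 31130, 40529 and 37819 FPKM in the CPVA group. ATP8 had 3242, 1973, 2846, 3372 and 3619 FPKM in the control group and 4136, 3438, 2253, 2995 and 3745 FPKM in the CPVA group. In both genes Control2 was the lowest and CPVA1 the highest of the 10 libraries, and the groups overlapped. Their log2 fold changes were 0.03 (95% interval -0.79 to 0.86) and 0.14 (95% interval -0.37 to 0.65) in limma, and that of ATP6 was below 0 under 2 other scalings of the libraries. Without Control2 they were -0.0947 and -0.00585.

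ND6, a subunit of complex I and the protein gene of the light strand, had 7815, 6640, 7507, 6978 and 8187 FPKM in the control group. In the CPVA group it had 7556, 5996, 4282, 5746 and 6660 FPKM. CPVA2, CPVA3 and CPVA4 were below each control library, and CPVA5 was just above the lowest. The log2 fold change was -0.32 (95% interval -0.79 to 0.16, adjusted p = 0.711 from limma), and without CPVA3 it was -0.20. Taken per 1000000 reads on the 13 mitochondrial mRNAs, which sets aside how much mitochondrial mRNA a library held, ND6 had 15520 ± 807 reads in the control group and 13679 ± 754 in the CPVA group (SD, n = 5 each), and the groups still overlapped.

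The rRNAs, the structural RNAs of the mitochondrial ribosome, did not differ detectably either. The 12S rRNA had 4468, 3000, 4539, 5576 and 5342 FPKM in the control group and 5841, 4338, 2314, 6692 and 4859 FPKM in the CPVA group. The 16S rRNA had 3230, 1800, 3931, 4075 and 4711 FPKM in the control group and 4739, 3449, 2193, 5635 and 3356 FPKM in the CPVA group. CPVA4 was the highest library for both, and the lowest was CPVA3 for the 12S rRNA and Control2 for the 16S rRNA. Their log2 fold changes were 0.01 (95% interval -0.66 to 0.69) and 0.13 (95% interval -0.58 to 0.84) in limma, and the sign of the 12S rRNA depended on the scaling of the libraries. Without Control2 they were -0.13 and -0.10, and without CPVA4 -0.13 and -0.03. These RNAs have at most short poly(A) tails, so oligo(dT) enrichment does not sample them as it samples mRNA.

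Transfer RNAs carry amino acids to the ribosome and, when mature, have no poly(A) tail. Reads at tRNA genes may therefore come from precursors as well as from mature tRNAs, and these cannot be told apart here. With 60 to 75 bases, tRNA genes lie next to other genes. How reads that reach into a neighbouring gene were counted is not given in the sources used here. Values at tRNA genes are therefore not read as levels of mature tRNA. Reads at the 8 light-strand tRNA genes made up 94.3% to 97.6% of all tRNA reads in the 10 libraries. tRNA-Asn and tRNA-Pro alone took 82.7% to 88.5%. The 13 heavy-strand tRNA genes tested had between 1 and 218 reads per library, and tRNA-Phe had 1 read, in CPVA4, and 0 reads in the other 9 libraries, where a count of 0 allows up to 1.70 to 2.88 FPKM. Transcripts of the opposite strand also run through each light-strand gene. Whether the strand was used in counting is not given in the sources used here, so the reads of the light-strand genes cannot be assigned to a strand.

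tRNA-Tyr (ENSCAFG00000022722), the neighbour of COX1, had the smallest p of the mitochondrial genes. It had 63.7, 53.35, 73.0, 75.55 and 59.2 FPKM in Control1 to Control5, from 91, 83, 127, 105 and 80 reads. It had 40.4, 31.03, 24.3, 32.35 and 31.5 FPKM in CPVA1 to CPVA5, from 56, 54, 25, 44 and 48 reads. Each CPVA library was below each control library. The mean of the CPVA group was 0.491 of that of the control group, and the log2 fold change was -1.03 (standard error 0.14, 95% interval -1.35 to -0.71, unadjusted p = 2.1e-05, adjusted p = 0.135 from limma). It passed both thresholds with library weights, with an adjusted p of 0.0155, and without CPVA1, with 0.0454 (limma), 2 settings in which more genes of the whole table passed too; over all alternatives the adjusted p reached 0.738.

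tRNA-Asn (ENSCAFG00000022720) had 4267, 3846, 6318, 8161 and 3739 FPKM in the control group, where Control3 and Control4 were the highest. In the CPVA group it had 3379, 2669, 2905, 3233 and 2513 FPKM, a narrower range that lay below each control library. The log2 fold change was -0.78 (standard error 0.25, 95% interval -1.33 to -0.23, unadjusted p = 0.00982, adjusted p = 0.638 from limma). tRNA-Asn and tRNA-Tyr were the 2 of the 36 mitochondrial genes whose groups did not overlap. Over all genes tested, 0.551% did not overlap with lower values in the CPVA group and 0.713% with higher values, and 0 mitochondrial genes were of the latter kind.

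tRNA-Cys (ENSCAFG00000022721), between tRNA-Asn and tRNA-Tyr, had 606.2, 605.5, 933.9, 1148 and 464.4 FPKM in the control group. It had 487.0, 376.4, 517.4, 447.7 and 435.7 FPKM in the CPVA group. Control3 and Control4 were again the highest, and Control5 lay within the CPVA range. With limma, the log2 fold change was -0.66 (standard error 0.23, unadjusted p = 0.0153, adjusted p = 0.638 from limma).

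tRNA-Ala (ENSCAFG00000022719) had 41.4, 39.3, 61.2, 63.1 and 50.3 FPKM in the control group and 51.9, 31.15, 22.05, 34.05 and 29.1 FPKM in the CPVA group. CPVA1 lay within the control range and the other 4 CPVA libraries lay below it. The log2 fold change was -0.63 (standard error 0.22, unadjusted p = 0.0156, adjusted p = 0.638 from limma), and without CPVA2 and CPVA3 it was -0.43 with an unadjusted p of 0.0860 in limma. tRNA-Glu (ENSCAFG00000022741), which lies apart from these 4 genes between ND6 and CYTB, had 421.0, 279.5, 410.1, 368.7 and 369.7 FPKM in the control group. It had 306.1, 258.7, 140.7, 190.1 and 260.8 FPKM in the CPVA group, where CPVA1 was above Control2 and the other 4 libraries were below the control range. Its log2 fold change was -0.71 (standard error 0.21, unadjusted p = 0.00565, adjusted p = 0.638 from limma).

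An exact two-sided permutation test over the 10 libraries, on the mean of log2(FPKM + 0.1), was run for single genes. The exact test gave p = 0.00794 for tRNA-Tyr and for tRNA-Asn, the smallest p this design allows. It gave p = 0.0159 for tRNA-Glu, 0.0238 for tRNA-Cys and 0.0397 for tRNA-Ala in the exact test. These 5 genes were named for their limma p on the same values, so the exact test is no independent evidence, and its p-values are not adjusted. ND6 had p = 0.0556 in the exact test, and the other 9 genes tested in this way lay between 0.127 and 0.952.

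The same 5 genes were set against the mitochondrial mRNA of their own library, as reads per 1000000 reads on the 13 mitochondrial mRNAs. This scale was chosen after the values had been seen. tRNA-Tyr had 16.7, 16.9, 19.8, 19.8 and 14.3 such reads in the control group and 9.20, 9.33, 10.15, 9.12 and 8.88 in the CPVA group. CPVA3, the lowest CPVA library in FPKM, was the highest of the group on this scale, and the 5 CPVA values lay close together, at 9.34 ± 0.483 against 17.5 ± 2.36 in the control group (SD, n = 5 each). The CPVA values rest on 25 to 56 reads per library, where counting error is larger than this SD. Their closeness therefore cannot be read as a small spread between animals. tRNA-Glu had 115.2, 92.4, 116.2, 101.0 and 93.0 such reads in the control group and 72.8, 81.2, 61.3, 56.0 and 76.8 in the CPVA group, again without overlap. tRNA-Asn overlapped on this scale, since CPVA3, with 1284 reads, and CPVA4, with 965.2, were above Control5 with 954.2. tRNA-Cys overlapped too, with 111.9 reads in Control5 and 110.9 to 216.0 in the CPVA group, and so did tRNA-Ala, with 11.99 reads in CPVA1 and 11.01 in Control1. The groups of 2 of the 5 genes therefore did not overlap on this scale.

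With all libraries rescaled to their mitochondrial mRNA, 4 of the 36 mitochondrial genes had lower values in the CPVA group at an unadjusted p under 0.05 in limma, against 0.547% of all genes tested, and 0 had higher values, against 4.36%. The rescaling itself shifted log2 fold changes upward, with a median over the whole table of 0.21 in place of 0.08, and 22.6% of all genes lay below 0 in place of 38.7%. The 4 genes were tRNA-Ala, tRNA-Asn, tRNA-Tyr and tRNA-Glu, with log2 fold changes of -0.50, -0.64, -0.90 and -0.58, while tRNA-Cys, at -0.53, had an unadjusted p of 0.0779. Groups did not overlap, with lower values in the CPVA group, for 2 mitochondrial genes and for 0.0981% of all genes tested, and with higher values for 0 mitochondrial genes and 0.475% of all genes. The adjusted p was 0.257 for tRNA-Tyr and 0.889 for the other 3 genes in limma.

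**Figure D4:**
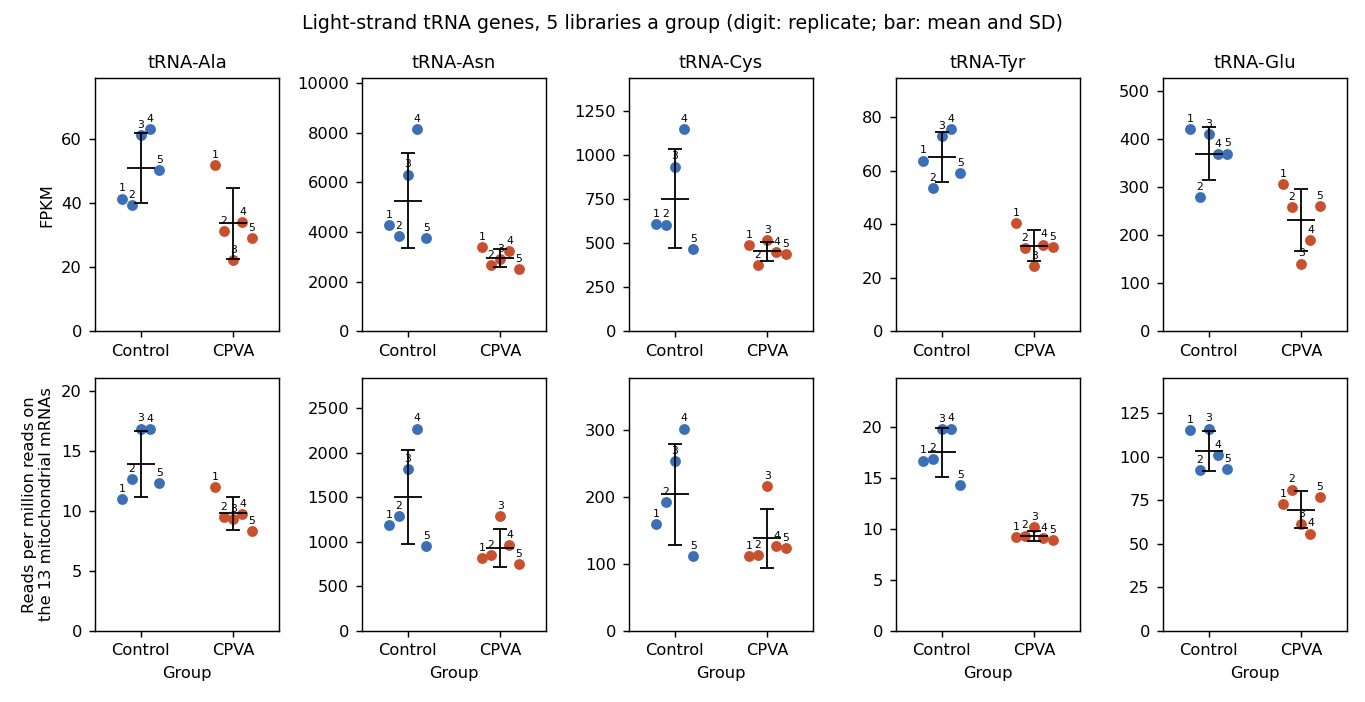
Values of 5 light-strand tRNA genes in the 10 libraries as FPKM (upper row) and as reads per 1000000 reads on the 13 mitochondrial mRNAs (lower row), with 1 point per library labelled by its replicate number and bars for the mean and SD of each group. tRNA-Tyr separates the groups in both rows, tRNA-Asn in the upper row and tRNA-Glu in the lower row.

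The other 3 light-strand tRNA genes had lower means in the CPVA group with overlapping values. tRNA-Pro, with the highest mean FPKM of the tRNA genes, had 6999, 4413, 5291, 5929 and 5918 FPKM in the control group and 6688, 4031, 2416, 5887 and 3959 FPKM in the CPVA group. CPVA2, CPVA3 and CPVA5 were below the control range, and the log2 fold change was -0.38 (95% interval -1.02 to 0.25, adjusted p = 0.728 from limma). Without CPVA3 it was -0.17 and without CPVA2 and CPVA3 -0.07. tRNA-Ser(UCN) had a log2 fold change of -0.31, which was -0.03 without CPVA3 and 0.03 without CPVA2 and CPVA3. tRNA-Gln had -0.62, from 2 to 14 reads per library.

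By strand, the median log2 fold change was -0.63 for the 9 light-strand genes and -0.12 for the 27 heavy-strand genes tested. All 9 light-strand genes and 18 of the 27 heavy-strand genes were below 0, against 38.7% of all genes tested. Among tRNA genes alone it was -0.65 for the 8 light-strand and -0.21 for the 13 heavy-strand genes. Without CPVA2 and CPVA3, 8 of the 9 light-strand genes and 8 of the 27 heavy-strand genes were below 0, against 57.7% of all genes. The medians were -0.43 and 0.07, against -0.0452 over all genes. The difference between these sets was not tested. Genes of a set share the same libraries and may share precursors, so they are not independent. The sets follow where genes are encoded, and the reads of the light-strand genes cannot be assigned to a strand. Heavy-strand tRNA genes ranged from -0.48 for tRNA-His to 0.48 for tRNA-Val, and the smallest unadjusted p among the 27 heavy-strand genes was 0.0962 in limma. Without CPVA4, tRNA-Val, at 2 to 6 reads per library, was higher in the CPVA group at an unadjusted p under 0.05.

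A few genes divided the libraries in a way that did not follow the groups; they were picked out after their values were seen. COX3 had 18672 and 12768 FPKM in Control1 and Control2 and 34958, 36291 and 40891 FPKM in the other 3 control libraries. Its CPVA values of 44055, 31644, 25986, 38399 and 31069 FPKM all lay above Control1 and Control2. Its log2 fold change was 0.36 (95% interval -0.59 to 1.31, adjusted p = 0.812 from limma). ATP6, the next gene before COX3, did not show this gap, since Control1 had 36878 FPKM.

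tRNA-Thr had 138.0 and 73.7 FPKM in Control1 and Control2, and 74.2 and 110.9 FPKM in CPVA2 and CPVA5. The other 6 libraries had 12.3 to 28.7 FPKM. tRNA-Trp had 55.4 FPKM from 77 reads in Control4 and 1.29 FPKM from 2 reads in Control2, with 9.77 to 21.3 FPKM in the other 8 libraries. The coefficient of variation over the 10 libraries was 81.6% for tRNA-Thr and 77.7% for tRNA-Trp, against 11.9% for COX2, the lowest of the 37 genes.

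**Figure D5:**
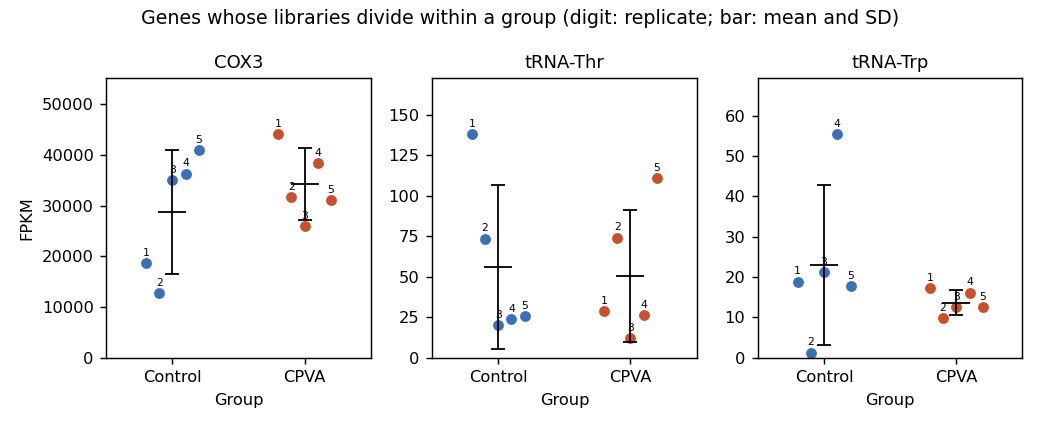
FPKM (vertical axis) of COX3, tRNA-Thr and tRNA-Trp in the control and CPVA groups (horizontal axis), with 1 point per library labelled by its replicate number and bars for the mean and SD. Control1 and Control2 are low for COX3 and, with CPVA2 and CPVA5, high for tRNA-Thr.

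CPVA3 had the lowest value of the 10 libraries for 21 of the 36 genes tested, among them 7 of the 13 protein genes, and Control2 for 10 genes, among them 6 protein genes. The highest value of the 13 protein genes fell in CPVA1 for 6 genes, in Control5 for 6 and in Control4 for 1. Library totals ranged from 15120163 reads in CPVA3 to 25592249 in CPVA2. The number of reads does not limit the protein genes, which had between 6950 and 2592235 reads per library, but it limits tRNA genes such as tRNA-Val, with 2 to 6 reads. Nuclear copies of mitochondrial sequence exist in mammals, and how reads matching both were counted is not given in the sources used here.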

How the data were processed

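RNA-seq values of 5 CPVA and 5 control libraries were used. The authors deposited FPKM per gene and library; per the labels, reads were processed with CASAVA, HISAT2 and featureCounts on CanFam3.1, with no versions given. Whole reads, gene lengths and library totals were worked out from the steps between the FPKM values, within 0.0001 of a whole read, for 100% of the 27638 genes with reads. On reads simulated with these recovered lengths, the reads of 37 of 37 mitochondrial genes were recovered exactly. The smallest length that fits was taken. The simulation started from such lengths, so it cannot show whether a true length was a multiple of the one taken.

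Groups were compared with limma 3.58.1 in R 4.3.3 (lmFit, eBayes with trend) on log2(FPKM + 0.1), with Benjamini-Hochberg adjustment over the 19222 genes whose mean FPKM reached 0.1. The count model of the study's methods was not run. The deposited values are FPKM, and the whole reads worked out from them were tested with limma's voom as an alternative. A call needed an adjusted p below 0.05 and a log2 fold change of 1 or more in either direction. Single named genes were also tested with an exact two-sided permutation test over the libraries. Sums over genes were not tested. Nuclear pathway genes and full marker lists were not analysed here; MARCO and CD5L were matched through identifier and symbol pairs in the study's supplement. Python 3.11.15 with numpy 2.4.6, pandas 2.3.3 and scipy 1.17.1 was used.

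Named with values in each library were both rRNAs, COX1, ND5, CYTB, ND6, ATP8, ATP6, ND1, genes at an unadjusted p under 0.05, and the tRNA genes of highest and lowest mean FPKM. The genes and lists were chosen with earlier results of these data known. Floors of 3 reads cover counting error only, as PCR copies are not independent molecules. No sample pair held identical values.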

Additional observations from a re-analysis of the deposited data

Results flagged for a closer look

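Within groups of 5 libraries, 2 of 81 groups of values had 1 library farther from the other 4 than 0.71 of the group's range, the 95% critical value of Dixon's test, where chance gives about 4.05. tRNA-Lys in the CPVA group was set apart by CPVA1, with 58.6 FPKM against 35.5 to 41.8 FPKM, a gap of 0.729 of the range. tRNA-Phe in the CPVA group was set apart by CPVA4, where a gap of 1.0 of the range comes from 1 read.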

How the results depend on the processing

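Over the 24 alternatives, the number of mitochondrial genes called was 0, except for 1, tRNA-Tyr, with library weights and 1 without CPVA1; it was 5 at an unadjusted p under 0.05 whatever the fold change. Library weights and leaving out CPVA1 also called 6 and 4 genes of the whole table, against 0, and 15.3% and 13.6% of all genes had an unadjusted p under 0.05, against 7.46%. Leaving out each library gave 0 to 1 called genes, 5 to 7 genes at an unadjusted p under 0.05 (4.55% to 13.6% of all genes; without CPVA4, 1 of 6, tRNA-Val, was higher), a median log2 fold change of the protein genes from -0.20 to 0.01, and a difference in the share of mitochondrial reads from -3.55 to 0.04 percentage points; the value above 0 came without CPVA3. The cause was not tested. With the replicate number as a block, 0 genes were called and 5 had an unadjusted p under 0.05. The numbers did not pair the libraries: the correlations of same-numbered libraries lay between -0.20 and 0.09. Among 15 named genes, the sign changed where the fold change was near 0: 12S rRNA was -0.0546 with median-of-ratios scaling and -0.0197 when scaled to reads outside the mitochondrial genes, ATP6 was -0.0389 and -0.00394, CYTB was 0.0447 with quantile normalization and 0.0641 without CPVA2 and CPVA3, and ND1 was 0.0948 and 0.0867 and, scaled to mitochondrial mRNA, 0.10. The cause was not tested. Leaving out 1 library moved 12S rRNA between -0.13 and 0.26, 16S rRNA between -0.10 and 0.31, ATP6 between -0.0947 and 0.11, ATP8 between -0.00585 and 0.27, CYTB between -0.27 and 0.00843, and ND1 between -0.18 and 0.0646. COX1, ND5, ND6 and tRNA-Pro came closest to 0 without CPVA3. Rescaling to mitochondrial mRNA moved the median of all genes to 0.21. The last scaling, and leaving out CPVA2 and CPVA3 together, were chosen after seeing the data.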
